A study of Saccharomyces cerevisiae with 8 samples.

Results

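The genes described here are the 9 genes of glycogen metabolism of budding yeast (Saccharomyces cerevisiae) named GSY1, GSY2, GLG1, GLG2, GLC3, GPH1, GDB1, IGD1 and GAC1, found by name among the 7127 features of the deposited table. All 9 were present once, and all 9 were among the 6439 genes whose mean was high enough to be tested. They come from 8 poly(A) RNA-seq libraries in 4 groups of 2, which the series calls biological duplicates. The groups were BY4741 wild type without hygromycin B, the same strain with 50 µg/mL hygromycin B, a Trm2KO strain without hygromycin B, and that strain with 50 µg/mL hygromycin B. BY4741 is a haploid laboratory strain, Trm2 is the tRNA methyltransferase that makes 5-methyluridine, and hygromycin B is an inhibitor of translation elongation. All cultures were grown in rich YPD medium, each begun from a single colony. Geneticin at 200 µg/mL is named for the knockout cultures alone, so the deletion and this antibiotic cannot be told apart. Treated cultures were harvested at an optical density of 0.4 and untreated ones at 0.6 to 0.8, so hygromycin B and harvest density cannot be told apart either. The density of each untreated culture within that range is not given, so it cannot be compared between the genotypes. The labels do not say how many knockout clones there were. Each library pools many cells, so fewer cells expressing a gene and less of its RNA per cell cannot be told apart.

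Glycogen is the branched glucose store of the yeast cell, and it accumulates when glucose runs low, under stress and on entry into stationary phase. A glycogenin protein (Glg1 or Glg2) primes the chain, glycogen synthase (Gsy1 or Gsy2) extends it from UDP-glucose, and the branching enzyme Glc3 adds branch points. Glycogen phosphorylase (Gph1) and the debranching enzyme (Gdb1) take the polymer apart, Igd1 inhibits Gdb1, and Gac1 brings the protein phosphatase Glc7 to Gsy2, which activates the synthase. The stress regulators Msn2 and Msn4 bind the stress response element (STRE), and several glycogen genes are known to carry it. The enzymes are also controlled by phosphorylation and by glucose 6-phosphate, which an mRNA measurement does not see.

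The libraries can be described briefly. TRM2 was listed at 0 in all 4 knockout libraries and was between 116 and 158 normalised FPKM in the 4 wild-type libraries. FPKM is fragments per length of transcript and per library size, and normalised FPKM is that value divided by 1 scale factor per library (0.611 to 1.44). On the log2 scale the replicates of each group correlated at 0.984 to 0.989. The 22 features named for ribosomal DNA took 2.01% to 19.3% of a library's FPKM sum, with unequal shares inside groups. The 9 glycogen genes were less even between untreated wild-type libraries than genes in general, with a median absolute log2 difference of 0.35 against 0.07 for all tested genes. In untreated wild type 8 of the 9 were higher in library 1, where the ribosomal DNA share was 15.8% against 2.01% in library 2. In the untreated knockout 7 of 9 were higher in the library with the higher share (19.3% against 5.36%), in the treated knockout 9 of 9 were (12.2% against 3.75%), and in treated wild type 6 of 9 were (2.68% against 2.39%). The differences behind these last counts were small. The median absolute log2 difference of the 9 was 0.06 in the untreated knockout, 0.07 in the treated knockout and 0.15 in treated wild type. For all tested genes it was 0.077, 0.058 and 0.13. How many of all tested genes were higher in the same library is not given here. The part of the ribosomal DNA share in the glycogen values was not tested.

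Without hygromycin B most glycogen genes were lower in the knockout, those that make the polymer and those that break it down. Of the 9 genes 8 fell and 0 rose (limma, adjusted p under 0.05; at an unadjusted p under 0.05 the numbers were 8 and 1), where 43% of all tested genes were called, 19.8% lower and 23.2% higher. The 2 groups did not overlap in any of the 9 genes, 8 of them lower in the knockout, as in 75.6% of all genes, 34.4% lower and 41.2% higher. The median log2 change of the 9 was −1.301, and that of all tested genes was 0.03. At least a 2-fold difference was seen for 5 of the 9, against 4.49% of all tested genes. The 5 genes GLG1, GSY1, GSY2, GLC3 and GPH1 were called lower under each of the 10 other settings of the processing and without each of the 8 libraries. Of the other calls, those of GDB1 (log2 −0.95, adjusted p = 0.405) and IGD1 (log2 −1.18, adjusted p = 0.143) ended with FPKM as deposited. GAC1 lost its call there too (adjusted p = 0.933), and in 6 of 8 fits without a library (adjusted p up to 0.192).

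Hygromycin B changed these genes unequally in the 2 genotypes. In wild type 5 of 9 fell and 2 rose, where 78.8% of all genes were called, 38.4% lower and 40.4% higher. In the knockout 4 rose and 1 fell, where 43.1% of all genes were called, 20.9% higher and 22.3% lower. Treated and untreated libraries did not overlap in 7 of the 9 genes in wild type, 2 higher and 5 lower, against 88.3% of all genes, 45.1% higher and 43.3% lower. In the knockout they did not overlap in 8, of which 6 were higher and 2 lower, against 77.6% of all genes, 36.7% higher and 40.9% lower. The medians of the 9 were −0.38 in wild type and 0.31 in the knockout, beside 0.02 and −0.02 for all tested genes. The quartiles of all tested genes were −0.64 and 0.66 in wild type and −0.26 and 0.21 in the knockout. The wild-type median of the 9 thus lay between the quartiles, and the knockout median above the upper one. The difference between the 2 responses was tested as the genotype by drug interaction and passed in 8 of the 9 genes. The drug difference was higher in the knockout for 6 of them and higher in wild type for 2. Of all tested genes 64.5% passed, 30.6% toward the knockout and 33.9% toward the wild type. With FPKM as deposited only GPH1 of the 8 passed. With hygromycin B, 4 genes were lower and 1 was higher in the knockout than in wild type, where 77.2% of all genes were called, 39.9% lower and 37.3% higher. The treated genotypes did not overlap in these 5 genes, against 88.8% of all genes, 45.9% lower and 42.8% higher. These comparisons share their control libraries and are not independent of each other.

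**Figure D1:**
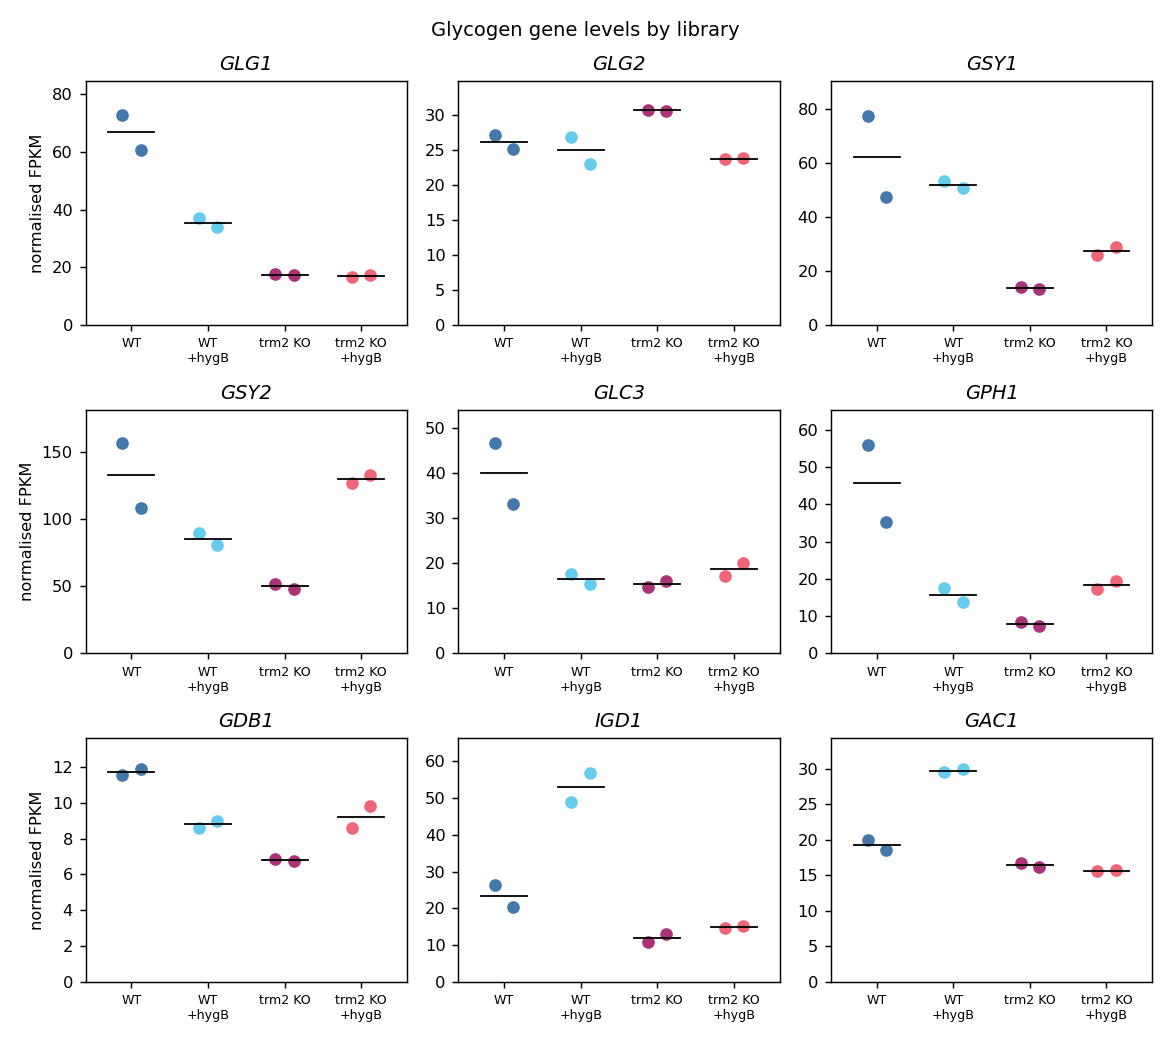
Normalised FPKM of each of the 9 glycogen genes (vertical axis, from 0) in the 8 libraries, by group on the horizontal axis. Points are libraries and the black line is the mean of 2. The untreated knockout has the lowest group mean for GSY1, GSY2, GLC3, GPH1, GDB1 and IGD1, while IGD1 and GAC1 stand highest in treated wild type.

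**Figure D2:**
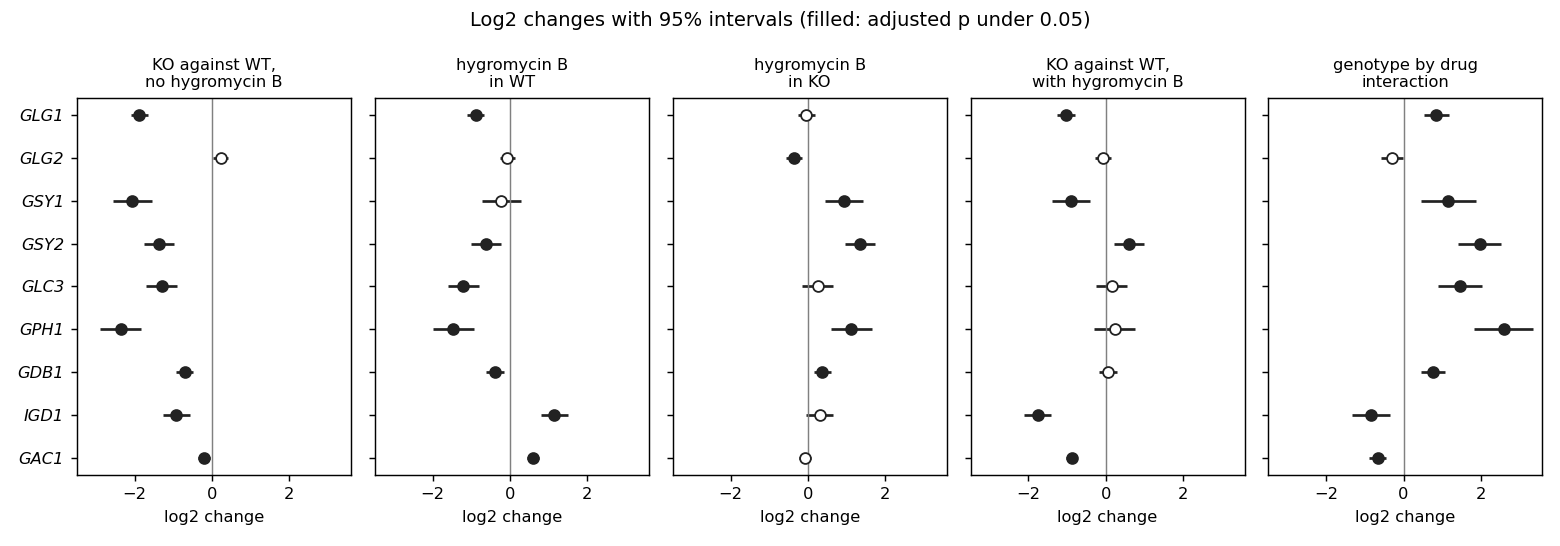
Log2 change of each gene in the 5 comparisons, on the log2(normalised FPKM + 1) scale, with 95% intervals from limma; filled points have an adjusted p under 0.05 over all 6439 genes. In the knockout against wild type without drug 8 points are filled and lie below 0, and in the interaction 6 lie above 0 and 2 below.

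The first step of synthesis is priming. GLG1 (YKR058W) measured 72.8 and 60.8 normalised FPKM in wild type without hygromycin B and 36.9 and 34.0 with it. In the knockout GLG1 had 17.6 and 17.1 without the drug and 16.7 and 17.2 with it. All 4 knockout libraries were below all 4 wild-type libraries, and with the drug the wild-type values were lower while the knockout values overlapped. GLG1 fell by 1.88 on the log2 scale in the knockout without drug (SE 0.09, adjusted p = 9.7e-05). It fell by 0.89 with hygromycin B in wild type (SE 0.09, adjusted p = 0.000132), a call that ended with FPKM as deposited (adjusted p = 0.618). In the knockout the drug difference was −0.04, with a 95% interval of −0.26 to 0.19, and it turned to 0.35 with FPKM as deposited and 0.24 with TPM. With hygromycin B GLG1 was still 2.03-fold lower in the knockout (log2 −1.02 ± 0.09 SE, adjusted p = 7.6e-05).

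GLG1 lies close to the deleted gene. In the RefSeq R64 assembly TRM2 is at chrXI:549448-551367 and GLG1 at chrXI:552770-554620, both on the plus strand, with 1402 bases between them and 1 gene, RPS21A, in that gap. RPS21A, a ribosomal protein gene, measured 2695 and 2428 normalised FPKM in wild type and 3046 and 3255 in the knockout without drug (log2 0.30 ± 0.08 SE, adjusted p = 0.0284). That call ended with TPM (log2 0.07, adjusted p = 0.906), on unscaled FPKM (adjusted p = 1) and with quantile normalisation, where the sign turned (log2 −0.05, adjusted p = 0.515). With hygromycin B RPS21A was higher in the knockout (log2 0.80 ± 0.08 SE, adjusted p = 0.000138), a call that ended under the same scalings. RHO4, the neighbour of TRM2 on its other side, was higher in the knockout without drug (log2 0.27 ± 0.06, adjusted p = 0.012). With the drug RHO4 was lower there (log2 −0.78 ± 0.06, adjusted p = 3.21e-05). Its values under other scalings are not given here. Whether the place of GLG1 beside the deletion bears on its level was not tested. The other glycogen genes lie elsewhere in R64. GLG2 is at chrX:154985-156127 and GSY2 at chrXII:660716-662833. GLC3 is at chrV:133120-135234, and GAC1 is at chrXV:667860-670241. GPH1 (chrXVI:861306-864014) and GDB1 (chrXVI:902044-906654) share a chromosome, as do GSY1 (chrVI:174265-176391) and IGD1 (chrVI:182274-182861), which are 5882 bases apart with 2 annotated genes between them.

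The paralogue GLG2 (YJL137C) varied less. GLG2 measured 27.0 and 25.02 normalised FPKM in wild type without hygromycin B and 26.8 and 23.0 with it. In the knockout GLG2 had 30.7 and 30.5 without the drug and 23.6 and 23.8 with it. The untreated knockout was the highest group, and the other 3 groups lay close together. Between the genotypes without drug the log2 difference of 0.23 (95% interval 0.03 to 0.43, adjusted p = 0.0692) did not pass, but it did without treated wild-type library 1 or 2 (adjusted p = 0.0234 and 0.0212). GLG2 fell by 0.35 with hygromycin B in the knockout (adjusted p = 0.0155), but that call ended with TPM (log2 −0.06, adjusted p = 0.865) and without any 1 of the 4 knockout libraries (adjusted p = 0.0671 to 0.0761), and its sign turned on unscaled FPKM (log2 0.04, adjusted p = 0.984). The interaction of GLG2 was −0.29 (adjusted p = 0.0683), and it passed without treated wild-type library 2 (−0.39, adjusted p = 0.0103).

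Chain extension is the work of the synthases. GSY2 (YLR258W), known as the main synthase of stationary cells, measured 156 and 108 normalised FPKM in wild type without hygromycin B and 89.6 and 80.8 with it. In the knockout GSY2 had 51.6 and 48.0 without the drug and 127 and 133 with it. The knockout thus had its low values without the drug and its high values with it, and the wild type the reverse, with no overlap within either genotype. GSY2 was 2.58-fold lower in the knockout without drug (log2 −1.37 ± 0.16 SE, adjusted p = 0.00135). With hygromycin B it rose 2.58-fold in the knockout (log2 1.37 ± 0.16, adjusted p = 0.0015), the only drug response of the knockout among the 9 genes that was called in every setting and without every library. In wild type it fell by 0.61 (adjusted p = 0.0119), but this was 0.00 with FPKM as deposited (adjusted p = 0.996) and −0.21 with TPM (adjusted p = 0.345), and it did not pass without treated wild-type library 2 (adjusted p = 0.0733). The interaction was 1.97 ± 0.23 (SE, adjusted p = 0.000495), and 1.76 with FPKM as deposited, where it missed the threshold (adjusted p = 0.053). With hygromycin B GSY2 was the 1 gene of the 9 that was higher in the knockout (log2 0.60 ± 0.16 SE, adjusted p = 0.0126). That call ended with FPKM as deposited (log2 0.10, adjusted p = 0.877), with TPM (adjusted p = 0.212), without treated wild-type library 2 (adjusted p = 0.0758) and without treated knockout library 2 (adjusted p = 0.0603).

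GSY1 (YFR015C), the second synthase gene, was lower in the knockout in both drug states. GSY1 measured 77.5 and 47.2 normalised FPKM in wild type without hygromycin B and 53.1 and 50.6 with it. In the knockout GSY1 had 14.0 and 13.4 without the drug and 25.9 and 28.8 with it. No knockout library reached any wild-type library. GSY1 was 4.18-fold lower in the knockout without drug (log2 −2.06 ± 0.21 SE, adjusted p = 0.000801) and 1.87-fold lower with it (log2 −0.90 ± 0.21, adjusted p = 0.00656), and both calls held in every setting. In the knockout GSY1 rose with hygromycin B by 0.94 (SE 0.21, adjusted p = 0.0125), which ended with FPKM as deposited (adjusted p = 0.0895) and without untreated knockout library 1 or 2 or treated knockout library 2 (adjusted p = 0.0512, 0.0652 and 0.0733). In wild type the drug difference was −0.22, with an interval of −0.72 to 0.28, and its sign depended on which untreated library was used (0.13 without library 1, −0.57 and an adjusted p = 0.00258 without library 2).

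GLC3 (YEL011W), the only branching enzyme gene, was high in untreated wild type alone. GLC3 measured 46.8 and 33.2 normalised FPKM in wild type without hygromycin B and 17.7 and 15.4 with it. In the knockout GLC3 had 14.8 and 15.99 without the drug and 17.3 and 20.1 with it. All groups but untreated wild type lay between 14.8 and 20.1 and partly overlapped. GLC3 fell by 1.301 in the knockout without drug (SE 0.17, adjusted p = 0.00186) and by 1.21 with hygromycin B in wild type (SE 0.17, adjusted p = 0.000538; unscaled log2 −0.62, adjusted p = 0.246). The 2 genotypes did not differ beyond error with hygromycin B (log2 0.16, 95% interval −0.24 to 0.57), and in the knockout the drug difference was 0.26 (interval −0.15 to 0.66), which passed with TPM (log2 0.53, adjusted p = 0.0491).

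Breakdown begins with GPH1 (YPR160W), the phosphorylase that releases glucose 1-phosphate. GPH1 measured 56.0 and 35.3 normalised FPKM in wild type without hygromycin B and 17.6 and 13.6 with it. In the knockout GPH1 had 8.32 and 7.39 without the drug and 17.3 and 19.5 with it. Untreated libraries of the 2 genotypes were furthest apart, and treated ones overlapped. Without drug GPH1 was 5.14-fold lower in the knockout (log2 −2.36 ± 0.22 SE, adjusted p = 0.000671), the largest change among the 9 genes and at the 0.295 percentile of all tested genes. With hygromycin B it fell by 1.46 in wild type (SE 0.22, adjusted p = 0.000865; with FPKM as deposited −0.88, adjusted p = 0.0886) and rose 2.19-fold in the knockout (log2 1.13 ± 0.22, adjusted p = 0.0086). The rise did not pass without untreated knockout library 2 (adjusted p = 0.0523) or treated knockout library 2 (adjusted p = 0.0559). The interaction of GPH1 was 2.59 ± 0.32 (SE, adjusted p = 0.000594) and was called in every setting and without every library, as no other interaction among the 9 was. With hygromycin B the genotypes did not differ beyond error (log2 0.23, interval −0.31 to 0.77).

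GDB1 (YPR184W), the debranching enzyme, had the lowest level per length of the 9 in every group. GDB1 measured 11.6 and 11.9 normalised FPKM in wild type without hygromycin B and 8.61 and 8.98 with it. In the knockout GDB1 had 6.87 and 6.77 without the drug and 8.60 and 9.82 with it. Its order of groups was like that of GPH1 in a narrower range. GDB1 fell by 0.70 in the knockout without drug (SE 0.09, adjusted p = 0.00211). With hygromycin B it fell by 0.38 in wild type (adjusted p = 0.00862) and rose by 0.38 in the knockout (adjusted p = 0.0182). The wild-type value turned to 0.18 on unscaled FPKM, was −0.02 with TPM (adjusted p = 0.954), and it did not pass without untreated wild-type library 2 (adjusted p = 0.052). The rise did not pass with unscaled FPKM (adjusted p = 0.568), nor without untreated knockout library 1 or 2 or treated knockout library 2 (adjusted p = 0.0635, 0.0773 and 0.116). With the drug the genotypes differed by 0.06 (interval −0.17 to 0.28), a value that was −0.41 with FPKM as deposited, −0.23 with TPM and, past the threshold, 0.38 with quantile normalisation (adjusted p = 0.00626). The interaction of 0.76 (adjusted p = 0.00268) ended with TPM (adjusted p = 0.132).

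The 2 regulators had their highest levels in treated wild type. IGD1 (YFR017C), the inhibitor of debranching, measured 26.4 and 20.5 normalised FPKM in wild type without hygromycin B and 48.9 and 57.0 with it. In the knockout IGD1 had 10.8 and 12.9 without the drug and 14.5 and 15.3 with it. All knockout libraries were below all wild-type libraries. IGD1 rose 2.22-fold with hygromycin B in wild type (log2 1.15 ± 0.14 SE, adjusted p = 0.000335), and in the knockout the difference was 0.31 (interval −0.04 to 0.66), which passed with TPM (log2 0.57, adjusted p = 0.034). It was 1.89-fold lower in the knockout without drug (adjusted p = 0.00372) and 3.38-fold lower with it (log2 −1.76 ± 0.14, adjusted p = 5e-05). The interaction was −0.84 ± 0.20 (adjusted p = 0.0112), and it missed the threshold when FPKM were left unscaled (−1.07, adjusted p = 0.35).

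GAC1 (YOR178C), the targeting subunit of the synthase phosphatase, measured 20.0 and 18.5 normalised FPKM in wild type without hygromycin B and 29.5 and 30.0 with it. In the knockout GAC1 had 16.8 and 16.2 without the drug and 15.6 and 15.7 with it. Treated wild type stood above all other libraries, and the knockout values stayed within a narrow range. GAC1 rose 1.52-fold with hygromycin B in wild type (log2 0.60 ± 0.06 SE, adjusted p = 0.000133) and was 1.84-fold lower in the knockout with the drug (log2 −0.88 ± 0.06, adjusted p = 2.67e-05). Both calls held in every setting and without every library. Without drug GAC1 was lower in the knockout by 0.21 (adjusted p = 0.0358), which did not pass with TPM (adjusted p = 0.165). In the knockout the drug difference was −0.07 (interval −0.22 to 0.08).

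Ratios within a library do not depend on the scale factors, and they show how the makeup of the pathway's mRNA differed. GSY1 made up 33.1% and 30.4% of the summed FPKM of both synthase genes in wild type without the drug and 37.2% and 38.5% with it. In the knockout it made up 21.4% and 21.9% without drug and 16.9% and 17.8% with it. The share was thus higher with the drug in wild type and lower with it in the knockout, with no overlap of libraries. GLG1 made up 72.9% and 70.8% of both initiator genes in wild type without the drug and 57.9% and 59.7% with it. In the knockout the GLG1 share was 36.5% and 36.0% without and 41.4% and 41.9% with hygromycin B. Per length, GLG1 was the more abundant initiator mRNA in all 4 wild-type libraries and GLG2 in all 4 knockout libraries.

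Ratios of single breakdown genes to single synthesis genes differed across groups, and not in the same way. The log2 ratio of GPH1 to GSY2 was −1.48 and −1.62 in wild type without the drug and −2.35 and −2.57 with it. In the knockout this ratio was −2.63 and −2.70 without and −2.88 and −2.77 with hygromycin B. Untreated wild type had the most GPH1 mRNA per GSY2 mRNA, and the 3 other groups lay between −2.88 and −2.35. GSY1 was not part of this ratio, so it does not describe phosphorylase against both synthases. The log2 ratio of GDB1 to GLC3 was −2.02 and −1.48 in wild type without the drug and −1.04 and −0.78 with it. In the knockout it lay between −1.24 and −1.005. Untreated wild type thus had the least GDB1 mRNA per GLC3 mRNA, the opposite of its place in the ratio of GPH1 to GSY2. The log2 ratio of the inhibitor IGD1 to its target GDB1, a ratio chosen after the values were seen, was 1.19 and 0.78 in wild type without the drug and 2.51 and 2.67 with it. In the 4 knockout libraries it was between 0.64 and 0.93. These ratios are descriptions and were given no test.

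**Figure D3:**
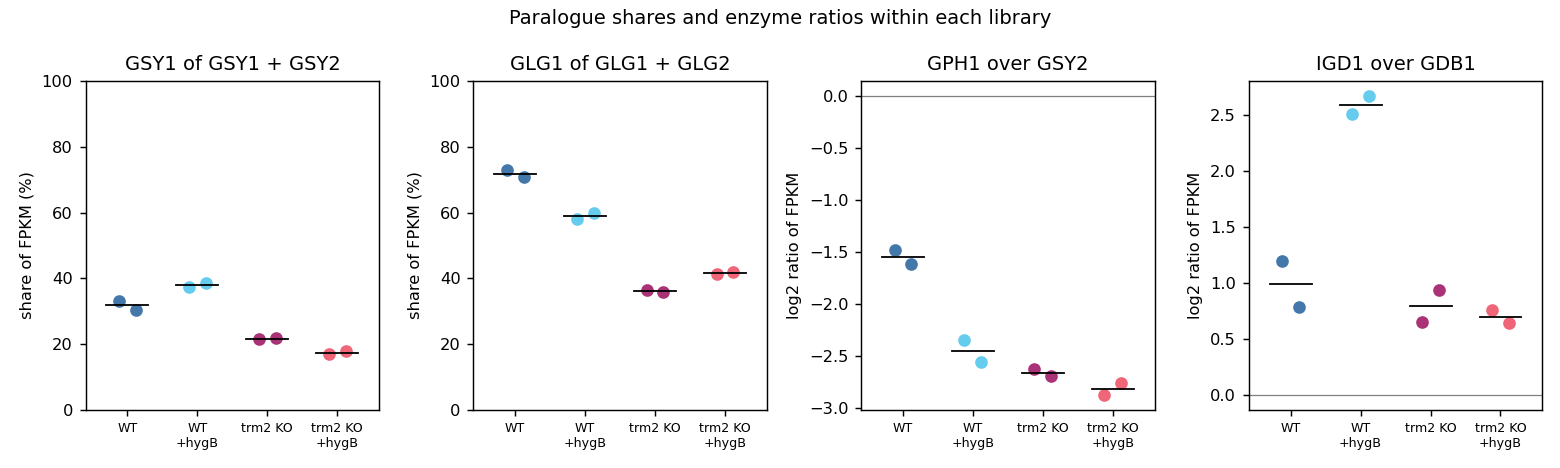
Shares of GSY1 and GLG1 in their paralogue pairs (percent of summed FPKM) and log2 ratios of GPH1 to GSY2 and of IGD1 to GDB1 in each library; points are libraries and black lines group means. The GLG1 share lies above 57% in the wild-type libraries and below 42% in the knockout libraries, and the ratio of IGD1 to GDB1 is highest in treated wild type.

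Because most of these genes were low together in the untreated knockout, the DNA before them was searched for short motifs in the RefSeq R64 assembly; the build used by the authors was not given in the sources used here. The STRE was searched as AGGGG on both strands in the 800 bases before the annotated gene start, which in this annotation is the start of the coding sequence. It was found in 8 of the 9 genes, against 48.2% of 5997 such windows of protein-coding genes, and at least 2 times in 6 of the 9, against 16.1%. GLG1, which was also lower in the knockout, was the gene without a match, and GLG2, which did not pass, had 2. In a window of 300 bases around the start (250 before, 50 after) the numbers were 5 of 9 and 21.6%. The stretches that hold the matches of 5 genes are given 5′ to 3′ on the strand of the gene, with the STRE letters or their reverse complement in capitals. They are shown because these genes were lower in the untreated knockout and carry at least 2 matches each, a choice for display and not a test. GDB1 and GAC1, also called lower, carry 1 match each and are not printed. Whether the STREs bear on the lower levels was not tested. GLG2, which was not called lower, also carries 2, and its stretch of 324 bases is not printed because of its length.
GPH1 chrXVI:860746-860999 (plus strand): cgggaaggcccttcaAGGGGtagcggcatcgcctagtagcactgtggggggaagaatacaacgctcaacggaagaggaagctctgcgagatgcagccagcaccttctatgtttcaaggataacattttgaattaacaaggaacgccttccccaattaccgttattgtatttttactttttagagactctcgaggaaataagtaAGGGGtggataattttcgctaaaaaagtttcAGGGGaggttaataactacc
GSY1 chrVI:176704-176873 (minus strand): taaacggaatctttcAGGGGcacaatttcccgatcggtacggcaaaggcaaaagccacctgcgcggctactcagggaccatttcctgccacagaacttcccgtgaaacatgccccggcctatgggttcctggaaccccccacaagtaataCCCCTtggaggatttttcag
GSY2 chrXII:660324-660539 (plus strand): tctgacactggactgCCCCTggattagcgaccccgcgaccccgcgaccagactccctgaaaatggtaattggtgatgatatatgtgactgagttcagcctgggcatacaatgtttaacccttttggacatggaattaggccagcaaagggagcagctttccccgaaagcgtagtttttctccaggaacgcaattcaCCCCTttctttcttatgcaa
GLC3 chrV:132731-132926 (plus strand): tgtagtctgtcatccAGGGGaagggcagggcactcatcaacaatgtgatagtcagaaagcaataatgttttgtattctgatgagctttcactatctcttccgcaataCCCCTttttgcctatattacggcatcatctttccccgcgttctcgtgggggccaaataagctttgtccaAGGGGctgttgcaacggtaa
IGD1 chrVI:183080-183140 (minus strand): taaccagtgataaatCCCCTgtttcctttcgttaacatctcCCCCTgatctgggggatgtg

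Counted from the gene start, the STREs of GPH1 lay between positions −545 and −322 and those of GSY1 between −467 and −328, outside the window of 300 bases. Mig1-type matches, named after the glucose repressor Mig1 and searched on both strands with the letters GTGGGG, with the letters GCGGGG, with the letters CTGGGG and with the letters CCGGGG, were found in 7 of 9 genes, all with at least 2, against 35.8% of windows with at least 1 and 8.69% with at least 2. GLG1 and GLG2 had none. The post-diauxic core AGGGAT was in 3 of 9 (GLG1, GSY2 and GAC1) against 24% of windows, and the heat shock pair GAANNTTC was in 0 of 9 against 29.1%. No 2 different motifs overlapped in these windows. The window of 800 bases runs into a neighbouring gene for 6 of the 9, and GLG2 has 41 bases to the next annotated gene. Both STREs of GLG2, which start at −396 and −107, lie beyond the near edge of that gene. A match of letters does not show that a factor bound there.

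**Figure D4:**
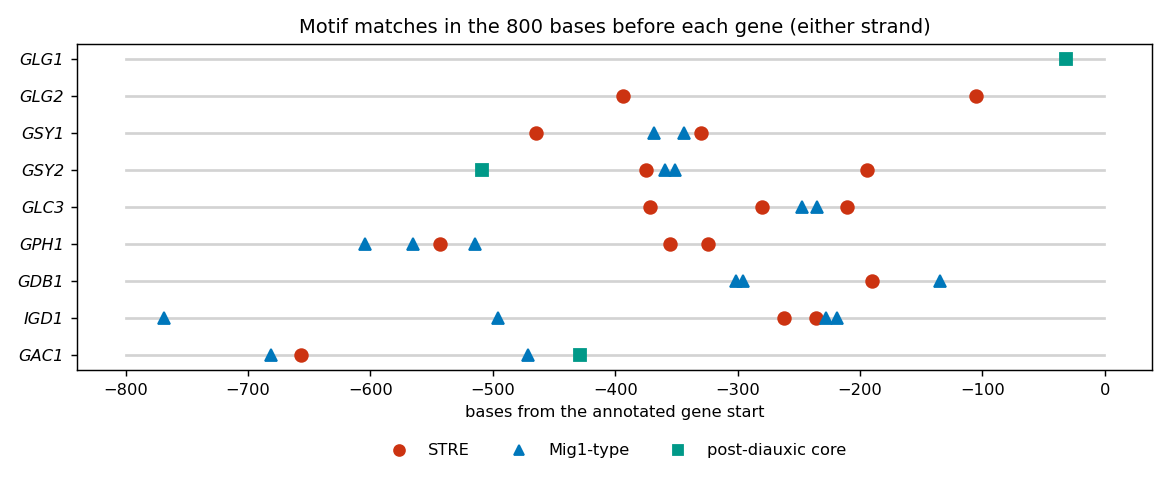
Positions of motif matches on either strand (horizontal axis, bases from the annotated gene start) in the 800 bases before each of the 9 genes; circles are STRE, triangles Mig1-type and squares the post-diauxic core. STRE matches are seen in every gene but GLG1, and Mig1-type matches in every gene but GLG1 and GLG2.

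The wider pathway was taken from a list of 29 genes for precursor supply, the phosphatase and kinases that act on glycogen synthase, the sporulation glucoamylase and the stress transcription factors. Without drug 14 of the 29 (48.3%) were lower and 4 (13.8%) higher in the knockout, against 19.8% and 23.2% of all tested genes, with a median of −0.27 beside 0.03 for all. HXK1, a hexokinase of glucose-poor conditions, fell by 1.54 (SE 0.13, adjusted p = 0.000388) from 259 and 197 normalised FPKM to 79.7 and 74.1, with no overlap. GIP2, a targeting subunit of Glc7 like Gac1, fell by 1.299 (SE 0.11, adjusted p = 0.000474) from 22.3 and 19.2 to 7.69 and 7.94. PCL8, a cyclin that directs the kinase Pho85 to glycogen synthase, fell by 0.93 (adjusted p = 0.000322), and PHO85 itself rose by 0.66 (adjusted p = 0.000464). The PCL8 and PHO85 calls ended with FPKM as deposited (adjusted p = 0.12 and 0.974), and that of PHO85 also with TPM (adjusted p = 0.155).

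With hygromycin B in wild type 10 of the 29 (34.5%) rose and 11 (37.9%) fell, shares near or below those of all tested genes (40.4% and 38.4%), with a median of −0.05 beside 0.02 for all. SGA1, the glucoamylase that degrades glycogen during sporulation, rose from 4.41 and 4.40 normalised FPKM to 37.7 and 34.2 (log2 2.77 ± 0.14 SE, adjusted p = 5.34e-06). HXK2, the main hexokinase on glucose, fell from 1283 and 1225 to 354 and 363 (log2 −1.80 ± 0.08, adjusted p = 3.66e-06). PGM1, the minor phosphoglucomutase, fell by 1.48 and SNF1, the kinase of glucose derepression, by 1.29, both calls that ended with FPKM as deposited (adjusted p = 0.0936 and 0.193). PIG2, a targeting subunit related to Gip2 and named after its values were seen, rose from 29.2 and 21.2 to 159 and 132 (log2 2.50 ± 0.15, adjusted p = 1.13e-05).

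In the knockout 11 of the 29 (37.9%) rose with hygromycin B and 3 (10.3%) fell, against 20.9% and 22.3% of all tested genes, with a median of 0.05 beside −0.02 for all. HXK1 rose from 79.7 and 74.1 normalised FPKM to 177 and 178 (log2 1.20 ± 0.13 SE, adjusted p = 0.000985), and GLK1, the glucokinase, rose from 149 and 167 to 298 and 300 (log2 0.92 ± 0.11, adjusted p = 0.00171). HXK2 fell by 1.24 (adjusted p = 0.000281) and PGM1 by 0.84 (adjusted p = 0.000132). The calls of GLK1, HXK2 and PGM1 ended with FPKM as deposited (adjusted p = 0.129, 0.549 and 0.694).

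Between the genotypes with hygromycin B 11 of the 29 (37.9%) were higher in the knockout, near the 37.3% of all tested genes, and 14 (48.3%) lower, against 39.9%. The median was −0.22 beside −0.03 for all. SGA1 was lower by 2.29 (SE 0.14, adjusted p = 1.31e-05), at 5.93 and 7.23 normalised FPKM against 37.7 and 34.2. PCL8 was lower by 1.27 and MSN4, a stress transcription factor, by 1.24 (adjusted p = 9.56e-06 and 1.31e-05), and PGM1 was higher by 0.87 (adjusted p = 5.44e-06), a call that ended with FPKM as deposited (adjusted p = 0.537). The interaction passed in 12 of the 29 (41.4%) toward the knockout, against 30.6% of all tested genes, and in 9 (31%) toward the wild type, near the 33.9% of all, with a median of 0.12 beside −0.03. SNF1 (1.23 ± 0.09 SE), MSN2 (0.74 ± 0.07) and PGM1 (0.64 ± 0.06) were positive and SGA1 (−2.02 ± 0.19) negative, with adjusted p = 8.62e-05, 0.00021, 0.000187 and 0.000232. Of these 4 only SGA1 passed with FPKM as deposited (adjusted p = 0.00522 against 0.388, 0.74 and 0.797). With TPM SNF1 and SGA1 passed (adjusted p = 0.000852 and 5.2e-07), while MSN2 and PGM1 did not (adjusted p = 0.0628 and 0.125).

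The genes whose profile over the 8 libraries was nearest to the median profile of the 9 were found by the root mean square difference of centred log2(normalised FPKM + 1) values. Among all tested genes outside the 9 the nearest was GIP2, at 0.112, which is also in the pathway list. LEU1 (0.137), ARG4 (0.161), LEU4 (0.208) and PNC1 (0.222) followed, of which the first 3 belong to leucine and arginine synthesis and PNC1 to NAD salvage. LEU1 measured 287 and 274 normalised FPKM in wild type without hygromycin B and 168 and 195 with it. In the knockout LEU1 had 115 and 121 without the drug and 154 and 165 with it. Of the 9 genes themselves GDB1 (0.258) and GLC3 (0.28) were closest to the median and IGD1 (0.685) the furthest. Among all tested genes 25 were closer to it than GDB1 and 38 closer than GLC3. For GSY2, GLG1, GSY1 and GPH1 the numbers were 214, 644, 677 and 801. For GAC1, GLG2 and IGD1 they were 1188, 2310 and 4212, so the median is not the profile of each of the 9. Taken gene by gene, with all other tested genes as candidates, no glycogen gene had another as its nearest profile. The measure also counts the size of changes, so genes that change in the same direction by unlike amounts lie apart. It therefore does not show whether the 9 vary together. The nearest to GSY2 was TPS2 (0.184), the trehalose 6-phosphate phosphatase, and the nearest to GSY1 was PIC2 (0.119), a mitochondrial phosphate and copper carrier. For GLC3 it was PHO5 (0.151), for GLG1 SPR2 (0.159), for IGD1 PET20 (0.138), for GAC1 OCA5 (0.0451), for GDB1 GLO4 (0.0791), and YCL012C (0.054) for GLG2. GPH1 had its nearest gene, the uncharacterised YDR366C, furthest away of all 9 (0.273). SPR2 (0.433 to 4.80 normalised FPKM over the libraries) and YDR366C (1.03 to 8.81) are low, so the added 1 narrows their differences. The 8 points of such a profile share libraries and groups.

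**Figure D5:**
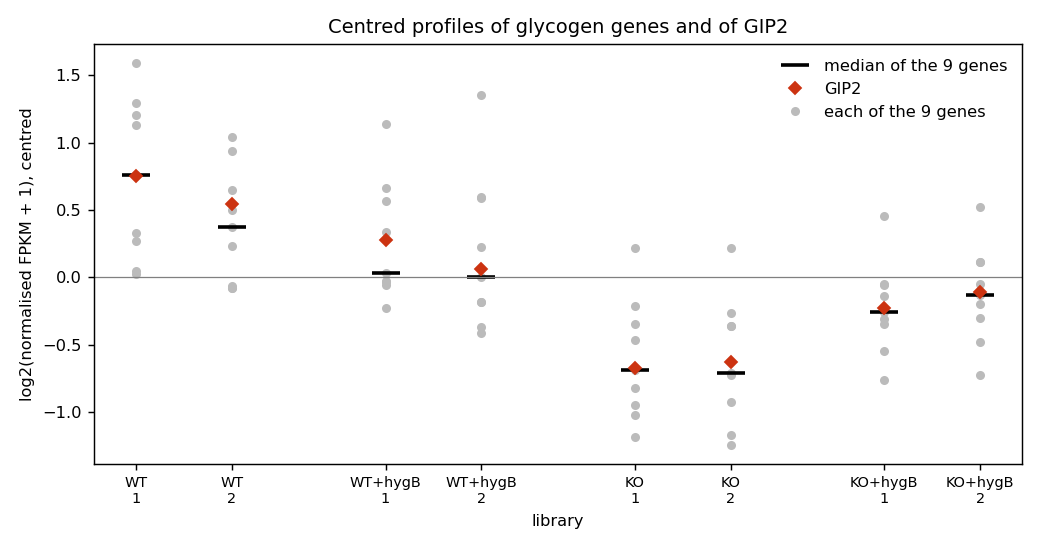
Centred log2(normalised FPKM + 1) values (vertical axis) in each of the 8 libraries for the 9 glycogen genes (grey points), their median (black bars) and GIP2 (red diamonds). The median is highest in untreated wild type and lowest in the untreated knockout, and GIP2 lies within a root mean square difference of 0.112 of it.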

How the data were processed

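The deposited table holds FPKM per gene, made by the authors for each of the 8 libraries. The submitters' processing notes name RSEM 1.3.3, STAR 2.7.8a, FastQC 0.11.8 and cutadapt 2.3. With strand setting, build and annotation not given in the sources used here, reads of overlapping genes on opposite strands cannot be told apart; no R64 gene overlaps any of the 9. RSEM shares out reads between similar genes, which bears on the paralogue pairs GSY1 and GSY2, GLG1 and GLG2. Per the labels' protocols small RNA was removed, poly(A) RNA selected and rRNA depleted. Counts were not used here and read depth is unknown, so no counting interval is given. Low values multiplied by R64 coding length showed a best periodicity of 0.168 to 0.277. Because RSEM shares out reads and the lengths it used are not given, this cannot show whether whole reads were counted.

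FPKM were divided by median-ratio scale factors, and the 6439 genes averaging 1 FPKM or more were tested. The log2 values, taken after adding 1, went into limma 3.58.1 (R 4.3.3; eBayes with trend), with 1 mean for each of 4 groups in 1 fit of all 8 libraries (4 residual degrees of freedom, 6.39 after moderation). Tests were two-sided with Benjamini-Hochberg adjustment over all tested genes, and a change means an adjusted p under 0.05. Every fold change is on the log2(value + 1) scale, so that of a low gene is understated, and it compares a gene with the rest of its library. The script was tested on simulated data. Named were all 9 genes, TRM2 and its neighbours RHO4 and RPS21A, and the genes with the nearest profiles. Of the pathway list the 4 genes with the smallest adjusted p in each comparison were named. The 9 genes, the pathway list and the tests were chosen with earlier results of these data known. Locus tags tied 5989 features, all 9 genes among them, to RefSeq R64, which gave positions, neighbours and sequences. The alternatives were 3 other scalings, pseudocounts of 0.1 and 10, no filter or a mean FPKM of at least 10, eBayes without trend, fits of single comparisons, a replicate block, and leaving out each library.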

Additional observations from a re-analysis of the deposited data

Results flagged for a closer look

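The genotype by hygromycin B interaction tests whether the drug difference in the knockout differs from that in wild type, and 8 of the 9 glycogen genes passed it (limma, adjusted p 0.000495 to 0.0127), among 64.5% of all tested genes. On the log2 scale the difference was 0.85 for GLG1, 1.16 for GSY1, 1.97 for GSY2, 1.46 for GLC3, 2.59 for GPH1 and 0.76 for GDB1. It was −0.84 for IGD1 and −0.67 for GAC1. Only GPH1 of these 8 passed with FPKM as deposited, and over the other settings its difference was 1.77 to 2.73.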

How the results depend on the processing

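Left unscaled, FPKM put the all-gene median at −0.26 for knockout against wild type without drug, 0.62 for hygromycin B in wild type, 0.36 in the knockout, −0.53 between genotypes with drug and −0.24 for the interaction. Genes called then numbered 163, 2550, 105, 2128 and 469, against 2771, 5071, 2778, 4970 and 4152. The shares of them that were higher became 14.1%, 85.6%, 78.1%, 16.6% and 30.1%. With TPM 1032, 1513 and 2238 genes were called in the first comparison, hygromycin B in the knockout and the interaction. Leaving out a treated wild-type library raised the number called in the first comparison and for hygromycin B in the knockout. Leaving out any other library lowered both numbers.

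Of 33 calls among the 9 genes 13 held in every setting and without every library. On unscaled FPKM (as deposited) the 9 had 5 lower genes without drug, 0 lower with hygromycin B in wild type, 2 higher and 0 lower in the knockout, 0 higher between genotypes with drug, and 1 higher and 0 lower in the interaction. With TPM 3 were lower with hygromycin B in wild type, 0 lower in the knockout and 0 higher between genotypes with drug; with quantile normalisation the last was 2. Without 1 library the number higher with hygromycin B in the knockout was 1 to 4 and lower 0 to 1, the number higher between genotypes 0 to 1 with drug and 0 to 1 without.

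Of the 29 pathway genes, with FPKM as deposited 0 were higher and 3 lower without drug, 1 lower with hygromycin B in wild type, 2 higher and 0 lower in the knockout, 0 higher between genotypes with drug, and 0 higher and 2 lower in the interaction. With TPM the numbers were 0 higher without drug, 5 lower with hygromycin B in wild type, 3 higher between genotypes with drug, and 7 higher and 4 lower in the interaction. For hygromycin B in the knockout 6 were lower with quantile normalisation and 7 when only its groups were fitted. Without 1 library 6 to 13 were higher and 3 to 5 lower for that comparison, and 2 to 4 higher in the knockout without drug.

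Signs turned, for values that had not passed unless named, as follows. On unscaled FPKM GLG2 was −0.062 without drug. For hygromycin B in wild type GDB1 (called in the report) was 0.18, GLG2 0.53, GSY1 0.39 and GSY2 (called) 0.0034. In the knockout GAC1 was 0.31, GLG1 0.35 and GLG2 (called) 0.038. Between genotypes with drug GDB1 was −0.41, GLC3 −0.32 and GPH1 −0.25. With TPM GAC1 was 0.21 and GLG1 0.24 for the drug in the knockout, GLG2 0.31 and GSY1 0.17 in wild type, and GDB1 −0.23, GLC3 −0.14 and GPH1 −0.075 between genotypes with drug. With quantile normalisation GLG2 was 0.010 there. Without 1 library the ranges were −0.031 to 0.14 for GDB1 and −0.17 to 0.044 for GLG2 between genotypes with drug, and −0.17 to 0.041 for GLG2 and −0.57 to 0.13 for GSY1 with the drug in wild type. The cause of these changes was not tested beyond the scaling itself. GDB1 falls out at a minimum mean of 10 FPKM, and the interaction has no value in fits of single comparisons.

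Quantile normalisation, chosen for ratios after seeing the data, moved 5 group means by more than their spread: the ratio of GPH1 to GSY2 in the untreated knockout (−2.57), of GDB1 to GLC3 in the untreated and treated knockout (−1.03 and −0.88), and of IGD1 to GDB1 in treated wild type and treated knockout (2.73 and 0.59). Libraries of a group share replicate numbers across groups, and correlations of their deviations were −0.232 to 0.256, so the numbers were not taken to pair the samples. With the replicate block the 9 genes kept their counts in each comparison, 8 lower without drug among them. P-values of the main fit rest on 1 error per gene, pooled from the spread between the 2 libraries of all 4 groups and then moderated. They do not use each group's own spread, so the untreated wild type also enters the error of tests within the knockout. For the 9 genes the groups were unequal. Their median replicate difference (log2) was 0.35 for wild type without drug and 0.15 with it, and 0.06 and 0.07 for the knockout.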
